A study of Homo sapiens with 4 samples.

Results

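The bins described here are stretches of 40 kb of the autosomes in which lamin B1 was strongly enriched in both LNCaP and VCaP cells. They were selected on the deposited log2 enrichment of lamin B1 over input itself: a bin had to reach at least 0.3 in LNCaP and at least 0.4 in VCaP, on the same start and end in both tables. These limits correspond to 1.23-fold and 1.32-fold more lamin B1 DNA than input. Of 67170 autosomal 40 kb bins with a value in both lines, 7343 met both limits, or 10.9%, which is 293.72 Mb of sequence. The limit was met by 25.8% of the bins in LNCaP and by 32.4% in VCaP, so the product of both shares is 8.33%. Since the rule uses the values of both lines, these numbers describe the selected bins and carry no test.

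The study is a chromatin immunoprecipitation and sequencing (ChIP-seq) experiment on 2 human prostate cancer cell lines grown in continuous culture with no drug or genetic change named in the labels. LNCaP is an established androgen-responsive line, labelled as prostate adenocarcinoma. VCaP is an established line labelled as bone metastatic prostate cancer. Each line has 1 library made with a polyclonal lamin B1 antibody and 1 input library without antibody, from formaldehyde-fixed, sonicated chromatin. With 1 library per group there is no replicate check on any value below. An SD given here is the spread over the bins of a region within 1 library.

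Lamin B1 is an intermediate filament protein that lines the inner nuclear membrane together with the A-type lamins. Chromatin that touches this layer is known to form lamina-associated domains, long stretches that in most cell types are gene-poor, late-replicating and little transcribed. Part of these domains is found at the lamina in many cell types and is called constitutive, and the rest differs from one cell type to another. In microscopy of several cell types, the gene-poor chromosome 18 lies near the nuclear edge and the gene-dense chromosome 19 nearer the interior. Which stretches were strongly enriched in both lines, and how they lie along the chromosomes, is the question addressed here.

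All positions are in hg19, counted from 1. The deposited values behave as a running mean of each entry and the 2 before it, so a value describes about 120 kb ending at its own bin, and neighbouring bins are not independent. The centre of what a value measures therefore lies 40 kb upstream of its own bin, and all positions below are those of the bins.

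In the selected bins the LNCaP log2 enrichment ran from 0.30 to 1.40 with a median of 0.50 (interquartile range 0.39 to 0.67), a 1.41-fold enrichment at the median. The VCaP log2 enrichment ran from 0.40 to 2.27 with a median of 0.66 (interquartile range 0.52 to 0.88), or 1.58-fold. At least 3 in 4 of the selected bins thus lay below a log2 value of 1 in each line. Within 0.05 of a limit lay 1718 of the selected bins (23.4%), and another 2123 bins missed the rule by no more than that margin. Just inside the LNCaP limit were bins at 0.300022, 0.300161 and 0.300168, and just outside it were bins at 0.299943, 0.299995 and 0.299999. Just inside the VCaP limit were bins at 0.400005, 0.400188 and 0.400234, and just outside it were bins at 0.399833, 0.399903 and 0.399972. The bin nearest to the LNCaP limit inside lay on chromosome 1 from 181160001 to 181200000 (0.943981 in VCaP), and the nearest outside on chromosome 19 from 15000001 to 15040000 (0.629442 in VCaP). For the VCaP limit they lay on chromosome 3 from 179720001 to 179760000 (0.302117 in LNCaP) and on chromosome 15 from 98080001 to 98120000 (0.584199 in LNCaP). The limits thus cut through a continuous distribution, as the density of bins by both values shows.

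**Figure D1:**
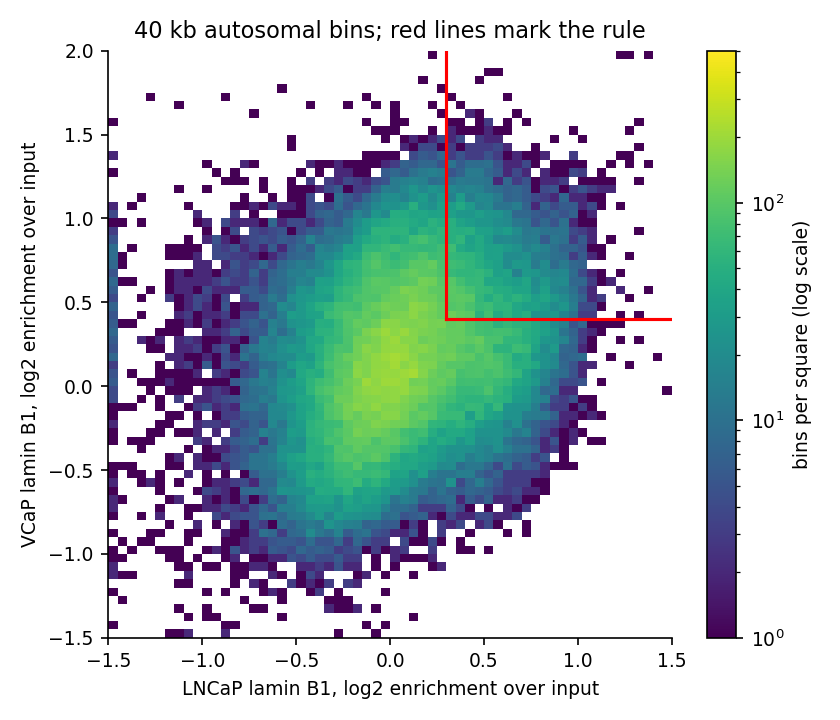
Log2 enrichment of lamin B1 over input in LNCaP (x axis) and VCaP (y axis) for the 67170 autosomal bins, with the color giving the number of bins per square on a log scale and the red lines the limits of 0.3 and 0.4. Values outside the axes are drawn in the outermost squares, and the 7343 selected bins in the upper right corner form no separate cloud.

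Bins that met both limits had about the same median in each line as bins that met the limit of that line alone. Both groups are cut from below at the same limit, so similar medians follow in part from the rule. The 95th percentile was higher in the selected bins, at 0.92 against 0.83 in LNCaP and 1.18 against 1.10 in VCaP. The LNCaP median was 0.50 in the 7343 selected bins and also 0.50 in the 9954 bins over the limit in LNCaP only, whose VCaP median was 0.11. The VCaP median was 0.66 in the selected bins and 0.64 in the 14389 bins over the limit in VCaP only, whose LNCaP median was 0.02. Among bins over the LNCaP limit, 42.5% were also over the VCaP limit, and among bins over the VCaP limit, 33.8% were also over the LNCaP limit.

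Among the selected bins, a higher value in one line did not go with a higher value in the other. Across the 7343 bins the values of the lines had a Spearman rho of -0.02 and a Pearson r of 0.004, against 0.29 and 0.28 across all 67170 bins. These are descriptions across bins that share libraries and neighbours, and cutting both values at a limit itself lowers a correlation. VCaP had the higher value in 5269 bins (71.8%) and LNCaP in 2074 (28.2%). The median difference, VCaP minus LNCaP, was 0.15 log2 units, where the medians of the lines over all these autosomal bins differ by 0.13 and the limits by 0.1. The counts of bins higher in VCaP or LNCaP were not corrected for these offsets, and with 1 library per line the error of a bin's difference between the lines is unknown.

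The deposited hidden Markov model state gives each bin 1 of 2 labels, and the label with the higher enrichment is taken as lamina-associated. It comes from the same libraries, so it is no independent evidence. Over all bins tested the associated state covered 37.4% in LNCaP, 44% in VCaP and 20.1% in both lines at once. Of the 7343 selected bins, 7073 (96.3%) carried it in both lines, 140 in LNCaP only, 122 in VCaP only and 8 in neither. In the other direction, 52.4% of the 13492 bins associated in both lines met the limits. Those 13492 bins formed 728 stretches, and 680 of the stretches (93.4%) held at least 1 selected bin. In the 430 stretches of at least 10 bins the selected bins made up a median of 48.2% (interquartile range 28.7% to 64.2%), 13 stretches held none, and in 37 they made up more than 80%. Nearly all stretches that the model calls associated in both lines thus held at least 1 selected bin. Since state and rule use the same libraries, this overlap is largely built in.

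Chromosome 16 stood far above the other chromosomes. It held 1075 of the 7343 bins (14.6%), and 54.4% of its own 1976 bins were selected, with 68.8% of its bins over the limit in LNCaP and 67.7% in VCaP. The next were chromosome 19 with 20.2% of 1398 bins and chromosome 10 with 18.7% of 3286. The lowest shares were 0.452% on chromosome 21 (4 of 884 bins), 3.72% on chromosome 13 (89 of 2394) and 4.58% on chromosome 9 (137 of 2994). The median over the 22 autosomes was 8.81%. Chromosome 18, given here because of its known position and not by rank, had 12.7% of 1869 bins.

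Chromosomes 19 and 10 reached similar shares from different values. On chromosome 19 the limit was met by 81.3% of bins in VCaP and by 23.96% in LNCaP, and the selected share was 1.04 times the product of these shares. On chromosome 10 it was met by 37.6% and 32.5%, and the selected share was 1.53 times their product. Chromosome 22, chosen after its values were seen, resembled chromosome 19 with 79.7% in VCaP, 14.5% in LNCaP and 13.4% in both (1.16 times the product). The ratio to the product was over 1 on 21 of the 22 autosomes, with a median of 1.26. It was highest on chromosomes 8 (1.72) and 4 (1.69). On chromosome 9 it was 0.734, where the selected share of 4.58% lay below the product of 6.23%.

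**Figure D2:**
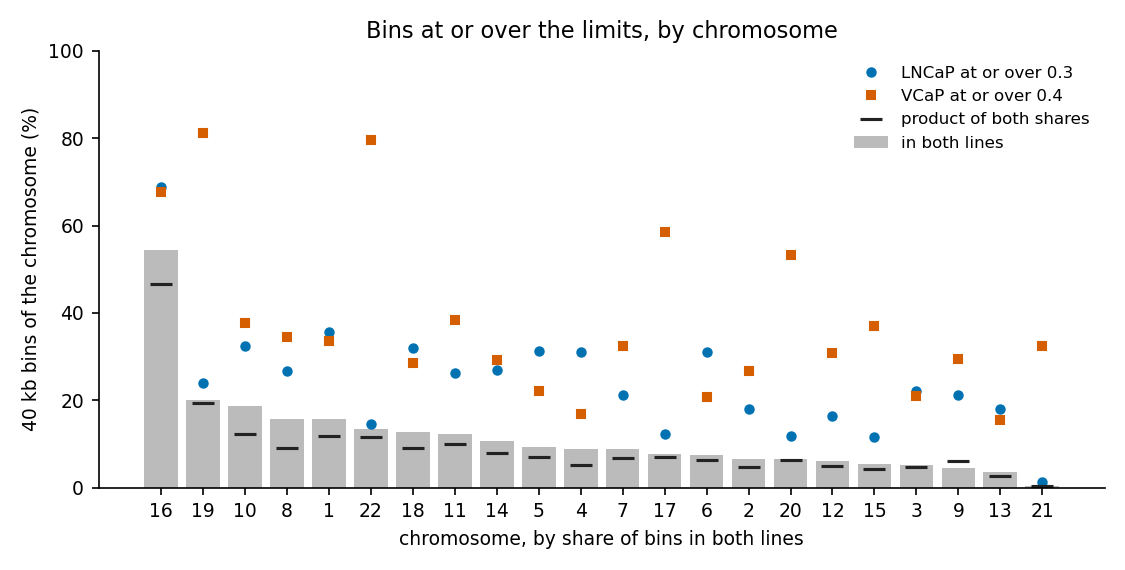
Share of 40 kb bins (y axis, percent) on each autosome (x axis, ordered by the grey bars) at or over the limit in both lines (bars), in LNCaP (circles) and in VCaP (squares), with a dash at the product of both shares. The bar of chromosome 16 reaches 54.4%, that of chromosome 19 20.2% and that of chromosome 21 0.452%, and the dash lies above the bar on chromosome 9 alone.

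The excess over the product was also present without chromosome 16. The 7343 bins are 1.31 times the 5596 that the overall shares give when multiplied, and 1.28 times the 5723 from multiplying within each chromosome. Without chromosome 16, 6268 bins of 65194 were selected (9.61%), 1.26 times the overall product and 1.30 times the product within chromosomes.

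The strongest bins were concentrated on chromosome 16. At 0.5 or more in both lines, 634 of 2864 bins (22.1%) lay there. At 0.7 it was 264 of 643 (41.1%), at 0.9 it was 96 of 136 (70.6%), and at 1.2 it was 10 of 11, the last bin being on chromosome 1. An equal limit is stricter in LNCaP, so the LNCaP values govern these counts more. Of all bins, 4.77% reached 0.7 in LNCaP and 13.5% in VCaP, and 1.03% and 6.08% reached 0.9. Chromosome 19 held 40 of the 304 bins at 0.8 or more in both lines, against 178 on chromosome 16. The bin with the highest value in its weaker line was on chromosome 16 from 88400001 to 88440000, with 1.40 in LNCaP and 2.20 in VCaP. The strongest bin elsewhere was on chromosome 1 from 228520001 to 228560000, with 1.28 in LNCaP and 1.35 in VCaP.

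Chromosome arms of the same chromosome differed widely. The short arm is called p and the long arm q, and the arms were separated at the longest stretch without 40 kb bins, which in hg19 lies at the centromere. The chromosomes named for their arms, 19, 8, 1, 4, 17 and 11, were chosen after their values were seen, as the 6 with the widest differences, and chromosomes 16 and 21 for their overall shares. Chromosome 19p had 43.0% of 614 bins selected and 19q had 18 of 784. In VCaP these arms were alike, with 84.0% and 79.1% of bins over the limit, whereas in LNCaP the limit was met by 50.3% of 19p and by 3.32% of 19q. Chromosome 8p had 38.3% of 1088 bins selected and 8q had 5.88% of 2482. There both lines differed between the arms, with 58.2% of 8p and 12.8% of 8q over the limit in LNCaP, and 48.5% and 28.3% in VCaP.

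Chromosome 1 was the reverse, with 633 of the 2633 bins of 1q and 255 of the 3014 bins of 1p (8.46%). The limit was met in LNCaP by 50.7% of 1q and 22.3% of 1p, and in VCaP by 32.5% and 34.6%. Chromosome 4p (19.3%) lay above 4q (5.09%), 17p (16.6%) above 17q (4.09%) and 11p (19.7%) above 11q (7.68%). Both arms of chromosome 16 were high, with 59.0% of 16p and 50.7% of 16q. On chromosome 21 all 4 selected bins lay on the short side of the centromere, among 42 bins, and 0 of 842 on the long arm. In the 18 chromosomes with bins on both arms, the short arm had the higher share in 12 and the long arm in 6, with a difference over 10 percentage points in the 6 chosen.

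**Figure D3:**
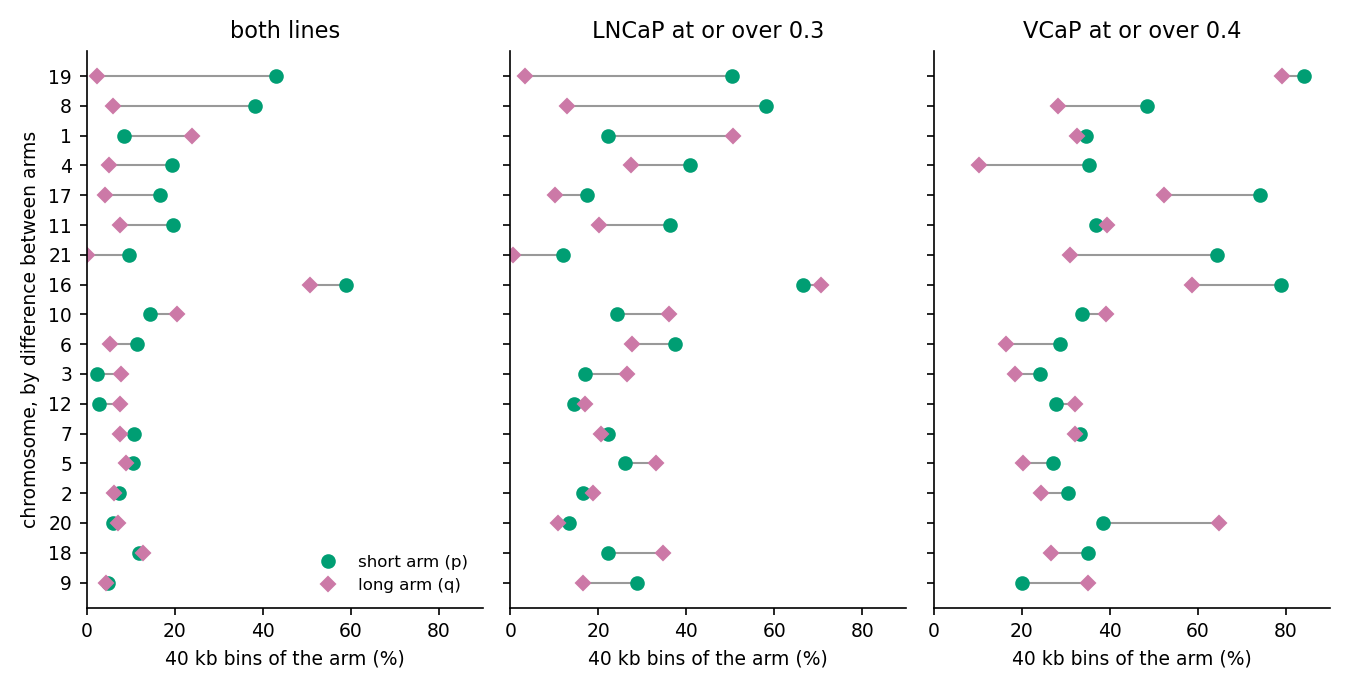
Share of 40 kb bins (x axis, percent) on the short arm (circles) and long arm (diamonds) of the 18 chromosomes with bins on both, for bins over the limit in both lines (left), in LNCaP (middle) and in VCaP (right). Chromosome 19 has its widest gap between arms in LNCaP (50.3% and 3.32%) and a narrow one in VCaP (84.0% and 79.1%), and chromosome 8 has a gap in both lines.

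Toward the chromosome ends the selected bins became more frequent. Within 5 Mb of an end of an arm, 1211 of 4790 bins were selected (25.3%), against 6132 of 62380 farther away (9.83%). These ends made up 7.13% of the bins and 16.5% of the selected ones. Of 39 arms with bins on both sides of the 5 Mb mark, 29 had the higher share near the end and 9 the lower, and 21q had 0 in both. Leaving out chromosome 16 gave 22.3% and 8.66%.

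The rise toward the ends was larger in VCaP than in LNCaP. Within 5 Mb of an end, 71.2% of bins were over the limit in VCaP and 31.1% in LNCaP, and farther away 29.4% and 25.3%. In the last 1 Mb the LNCaP share was 23.5%, about that beyond 40 Mb (23.1%). By distance, the selected share was 18.9% in the last 1 Mb, 28.3% from 1 to 2 Mb, 26.3% from 2 to 5 Mb, 21.0% from 5 to 10 Mb and 6.41% beyond 40 Mb. The ratio to the product of the shares followed another order. It lay between 0.984 and 1.19 in the 5 classes up to 20 Mb, at 1.41 from 20 to 40 Mb and at 1.34 beyond 40 Mb. The ends with the highest shares were those of 16q (116 of 124 bins), 10q (97 of 124), 8p (96 of 123), 16p (80 of 123) and 22q (75 of 124). At the ends of 3p, 9p, 12p, 17q and 21q no bin within 5 Mb was selected.

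**Figure D4:**
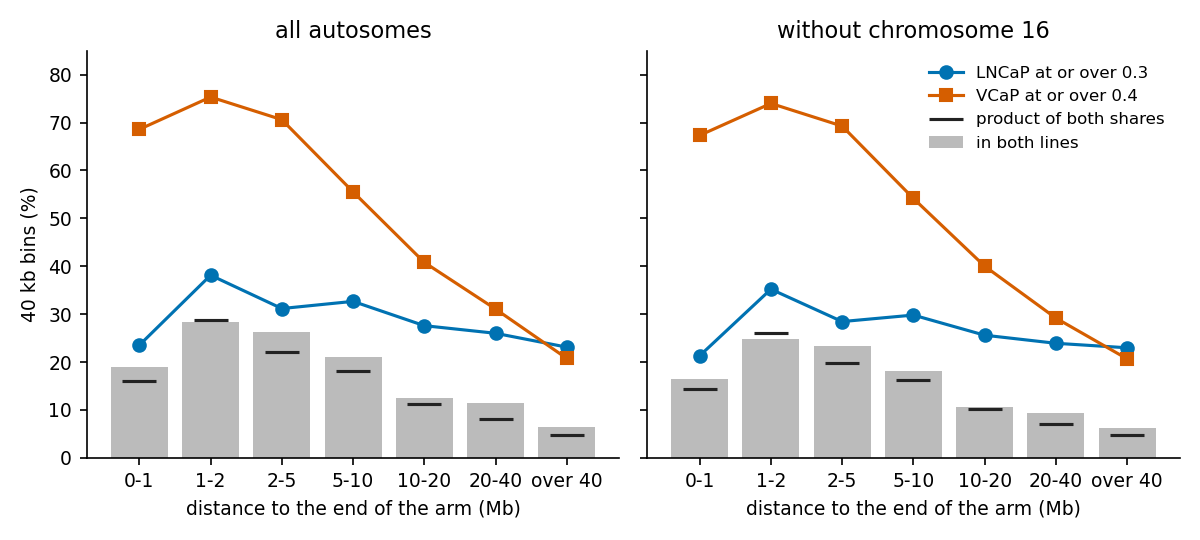
Share of 40 kb bins (y axis, percent) by distance to the end of the arm (x axis, Mb) for all autosomes and without chromosome 16: bars for both lines, circles for LNCaP, squares for VCaP, dashes for the product of both shares. The VCaP share is 68.6% in the last 1 Mb, 75.3% at 1 to 2 Mb and 20.8% beyond 40 Mb, and the LNCaP share is 23.5%, 38.1% and 23.1%.

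Near the centromeres the picture was mixed. In the 1 Mb next to the gap 22.6% of 954 bins were selected, from 2 to 5 Mb it was 9.54% and from 5 to 10 Mb 8.30%. Within 5 Mb of the centromere the share was higher than in the rest of the arm on 15 of 39 arms and lower on 23. The highest were 16q (55.2%), 16p (45.1%), 11p (44.9%), 19p (44.0%) and 2p (34.4%).

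The selected bins lay in 1716 runs of adjacent bins. The median run was 3 bins, or 120 kb, and 512 runs (29.8%) were single bins. Since a value averages 3 entries, a run of 3 bins can come from 1 strong stretch of 40 kb. With the running mean undone, the rule gave 8563 bins in 4166 runs with a median of 40 kb. Undoing the mean enlarges differences between neighbouring bins, noise included, so this median is no measure of the true length of a stretch. Runs of at least 10 bins (400 kb) numbered 163 and held 2872 of the selected bins (39.1%). Taken singly, LNCaP had a median run of 160 kb with 67.6% of its bins over the limit in runs of at least 10, and VCaP had a median run of 120 kb with 58.5%. Each run over both limits lies inside a run of each line by definition. Length and level of a run come from the same averaged values that the rule used. A single bin shares 2 of its 3 averaged entries with each neighbour, at least 1 line of which is below its limit, so low values in short runs follow largely from how runs are formed. Single bins had a median of 0.36 in LNCaP and 0.50 in VCaP, runs of 10 to 24 bins had 0.56 and 0.72, and runs of 25 bins or more had 0.70 and 0.84. Every bin of the 446 runs of at least 5 bins carried the associated state in both lines, against 71.5% of the single bins.

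Runs of at least 10 bins were found on 21 autosomes. Chromosome 16 had 26 of them, chromosome 1 had 22, chromosome 8 had 17 and chromosome 10 had 15. Chromosome 21 had none. On chromosome 16, 60.7% of the selected bins lay in such runs, and without that chromosome it was 35.4%.

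The longest run lay at the end of 16q, from 85760001 to 89440000. Its 92 bins had a mean log2 enrichment of 0.92 ± 0.21 (SD over bins) in LNCaP and 0.99 ± 0.33 in VCaP, with lowest values of 0.41 and 0.45. It is flanked by a run of 16 bins from 85080001 to 85720000 (0.79 ± 0.14 and 0.80 ± 0.17) and by one of 14 bins from 89600001 to 90160000 (0.77 ± 0.12 and 0.76 ± 0.12), which reaches to 0.195 Mb from the chromosome end. The 3 runs belong to a single stretch of 228 bins associated in both lines, from 81160001 to 90280000, of which 193 were selected. It holds the highest VCaP value of all bins (2.27) and the highest LNCaP value among the selected bins (1.40).

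Of the 11 longest runs, 6 were on chromosome 16. Besides that at the end of 16q they were a run of 53 bins on 16p from 6760001 to 8880000 (0.80 ± 0.18 in LNCaP and 0.86 ± 0.19 in VCaP), one of 46 bins from 9280001 to 11120000 (0.71 ± 0.21 and 0.85 ± 0.17), one of 44 bins from 12240001 to 14000000 (0.64 ± 0.17 and 0.80 ± 0.18), one of 33 bins from 25920001 to 27240000 (0.89 ± 0.10 and 0.84 ± 0.20), and on 16q one of 47 bins from 64640001 to 66520000 (0.71 ± 0.20 and 0.75 ± 0.16). LNCaP had the higher value in 33 of the 92 bins of the run at the end of 16q, in 17 of the 53, in 14 of the 46, in 13 of the 44, in 20 of the 33 and in 23 of the 47. VCaP was thus the higher in most bins of the runs from 85760001, 6760001, 9280001 and 12240001. LNCaP was the higher in most bins of the run from 25920001, and the run from 64640001 was split about evenly.

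The other 5 of the longest runs lay on 8p, 19p, 10q, 14q and 12q. On 8p, 47 bins from 2920001 to 4800000 averaged 0.80 ± 0.17 in LNCaP and 0.65 ± 0.11 in VCaP. LNCaP had the higher value in 38 of them. On 19p, 33 bins from 22080001 to 23400000 had 0.93 ± 0.15 in LNCaP and 0.95 ± 0.19 in VCaP. This run had the highest mean in its weaker line of all runs of at least 10 bins. On 10q, 32 bins from 131600001 to 132880000 had 0.62 ± 0.13 and 0.69 ± 0.16. On 14q, 32 bins from 97400001 to 98680000 had 0.60 ± 0.10 and 0.97 ± 0.15, and on 12q, 32 bins from 127960001 to 129240000 had 0.51 ± 0.07 and 1.16 ± 0.15. In the runs on 14q and 12q VCaP was the higher in every bin.

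The 5 runs of at least 10 bins with the highest mean in their weaker line were those on 19p and at the end of 16q, 26 bins on 1q from 227800001 to 228840000 (0.88 ± 0.23 in LNCaP and 0.87 ± 0.23 in VCaP), 31 bins on 16p from 5000001 to 6240000 (0.85 ± 0.20 and 1.07 ± 0.24), and the run of 33 bins on 16p from 25920001. The means of LNCaP and VCaP differed by less than 0.1 in 4 of these 5, and on 16p from 5000001 LNCaP was the higher in 3 of the 31 bins.

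Across the 163 runs of at least 10 bins, the run means of LNCaP and VCaP had a Spearman rho of -0.25 and a Pearson r of -0.24, a description of runs that were chosen by both values. LNCaP had the higher mean in 41 runs (25.2%), and in 61 runs VCaP was higher in every bin. The runs at either extreme were chosen after their values were seen. The largest excess of LNCaP was on 1q from 158280001 to 158720000, with 0.96 ± 0.10 in LNCaP and 0.47 ± 0.07 in VCaP over 11 bins. The next largest was on 10q from 110520001 to 111320000, with 0.83 ± 0.08 and 0.50 ± 0.05 over 20 bins. It was followed by the neighbour of the first run on 1q, from 158760001 to 159680000 (0.90 ± 0.14 and 0.58 ± 0.13). The largest excess of VCaP was on 1p from 4080001 to 4640000, with 0.43 ± 0.05 in LNCaP and 1.23 ± 0.16 in VCaP over 14 bins. In the runs from 158280001, 110520001 and 4080001 every bin of 1 line lay above every bin of the other. In the run from 158760001 they overlapped, since LNCaP went down to 0.46 and VCaP up to 0.89. Enrichment past both limits thus included stretches at unequal levels.

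The edges of the runs were shallow. In the 446 runs of at least 5 bins, the median LNCaP value was 0.55 in the third bin from the upstream edge, 0.41 in the first bin, 0.28 in the bin outside and 0.30 at 400 kb outside. In VCaP these medians were 0.75, 0.58, 0.39 and 0.47. Downstream the bin outside had 0.29 in LNCaP and 0.39 in VCaP, and at 400 kb 0.31 and 0.47. With the running mean undone, the upstream LNCaP median was 0.18 at 120 kb outside and 0.56 in the first bin. In VCaP these undone medians were 0.30 and 0.76. Between these positions the undone medians at 80 and 40 kb outside were 0.34 and 0.44 in LNCaP, and 0.46 and 0.60 in VCaP. Farther out, at 160 kb, they were 0.29 and 0.40. Downstream, the undone medians in the bin outside were 0.22 in LNCaP and 0.30 in VCaP. In the third bin inside they were 0.55 and 0.77. At 400 kb upstream, 48.9% of bins were over the limit in LNCaP and 56.4% in VCaP, against 25.8% and 32.4% of all bins. The surroundings of the runs were thus raised in each line against all bins, and the bin next to a run is below a limit by definition. They were not compared with the share of their own chromosome. On chromosome 16, which had the most long runs, 68.8% of all bins were over the limit in LNCaP and 67.7% in VCaP. Over the 3397 run ends with a bin next to them, the bin outside was below the limit in LNCaP only at 1512 (44.5%), in VCaP only at 1410 (41.5%) and in both lines at 475 (14.0%). So at most run ends 1 line was still over its limit in the next bin. A run ends as soon as either line falls below its limit, so this follows largely from how runs are formed.

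**Figure D5:**
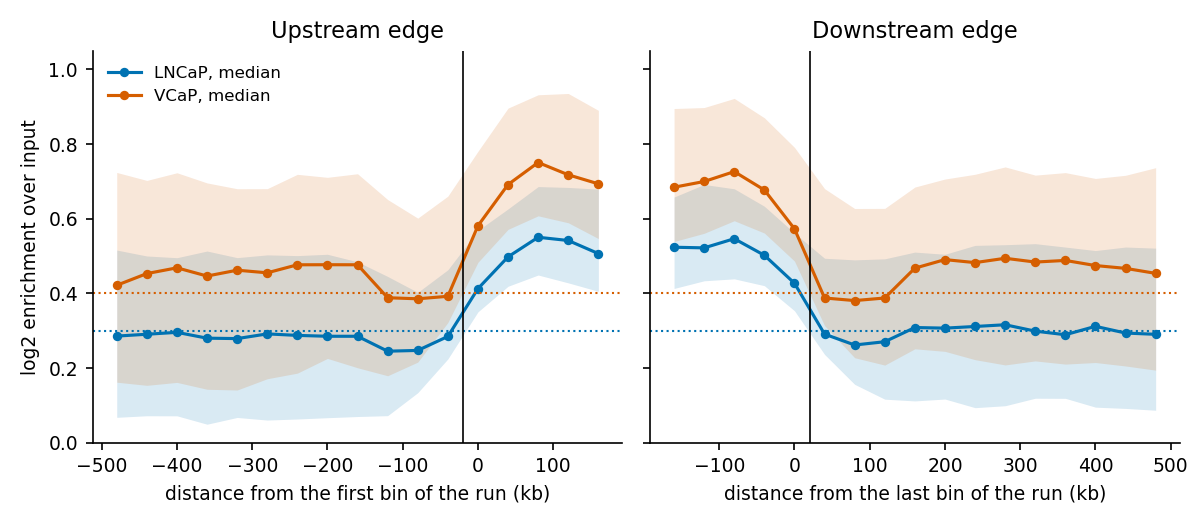
Median log2 enrichment over input (y axis) in LNCaP and VCaP by distance from the first or last bin (x axis, kb) of the 446 runs of at least 5 bins, with shading from the lower to the upper quartile, dotted lines at the limits and a vertical line at the edge. Inside, the medians reach 0.55 in LNCaP and 0.75 in VCaP on the upstream side, and outside they are 0.30 and 0.47 at 400 kb.

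Selected bins also lay near each other beyond single runs. Of the bins 120 kb downstream of a selected bin, the nearest that share no averaged entry with it, 53.9% were selected too, against 10.9% of all bins. At 1 Mb it was 31.7%, at 4 Mb 24.1% and at 10 Mb 19.3%. Leaving out chromosome 16 the shares were 51.0%, 26.7%, 18.5% and 15.2%, against 9.61% overall. Of 2665 windows of 1 Mb with at least 80% of their bins, 1603 (60.2%) held no selected bin, 185 were selected in more than 50% of their bins and 12 in all of them. The 210 richest windows, 7.88% of all, held 50% of the selected bins.

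The fullest windows of 5 Mb began on 16q at 85000001 (118 of 125 bins selected), on 16p at 5000001 (109 of 125), on 19p at 5000001 (99 of 125), at the tip of 8p (96 of 123) and on 10q at 130000001 (95 of 125).

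Long stretches held no selected bin at all, and they differed in which line was low. The longest ran on chromosome 2 from 37040001 to 80360000, 43.32 Mb, where 6.74% of bins were over the limit in LNCaP and 20.3% in VCaP. On chromosome 15 from 58880001 to 87600000 it was 1.97% in LNCaP and 38.6% in VCaP, and on chromosome 11 from 61600001 to 87120000 it was 3.45% and 45.9%. On chromosome 2 from 154200001 to 183400000 it was 14.8% in LNCaP and 3.84% in VCaP, and on chromosome 12 from 66840001 to 94320000 it was 12.8% and 1.31%. In each of these 5 stretches 1 line had fewer than 10% of its bins over the limit. They were found by length and are given as a description.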

How the data were processed

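The authors deposited, per line, a table of log2 enrichment of lamin B1 over input and another with a state label, which the file name ascribes to a hidden Markov model (HMM). The submitters' processing notes name hg19 and STAR. Scaling of ChIP to input and filters are not given in the sources used here. Depth is unknown, so no counting interval is given.

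Libraries were grouped by line and antibody. Bins and limits were chosen with earlier results of these data known. Bins of 40 kb with equal limits in both lines were kept, and adjacent selected bins were joined into runs. Text names the 10 longest runs with ties (11), the 5 strongest of at least 10 bins, the bins nearest the limits and the 3 highest and lowest chromosomes. Other items named, such as arms, arm ends, windows and stretches, were chosen by their values.

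Entries wider than 40 kb had a median absolute log2 value of 0.21 in LNCaP and 0.33 in VCaP, and of 0.01 in both after a trailing mean of 3 entries was undone. The code that joins bins into runs and undoes the mean was checked on made-up data over 67170 bins. It returned 540 of 540 planted runs, and the undone mean had a median error of at most 0.02 on any chromosome. Recovery of runs from the deposited values was not tested. Sequences, GC content, genes and copy number were not analysed here; the gene table at hand is of another build. Python 3.11.15, numpy 2.4.6, pandas 2.3.3 and matplotlib 3.10.9 were used.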

Additional observations from a re-analysis of the deposited data

How the results depend on the processing

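Of 29 alternative values for 6 results, 20 stayed within 1.5 times the value reported and 9 moved. Those without chromosome 16, all those for the ratio to the product of the shares, for chromosome 16 and for the chromosome ends, and 1 for the number of runs were chosen after seeing the data. A limit of 0.5 in both lines left 2864 bins by its construction, 32.1% of chromosome 16 and 10.5% of the bins within 5 Mb of an end. The associated state in both lines gave 13492 bins, 82.4% of chromosome 16 and 41.9% near the ends. Undoing the running mean gave 8563 bins, of which 5293 were among the 7343. Those 8563 bins formed 4166 runs with a median of 40 kb. Undoing the mean enlarges differences between neighbouring bins, noise included, which by itself shortens runs. Runs of at least 5 bins numbered 446. Chromosome 16 had the highest share and chromosome 19 the next under each of the 6 alternatives that keep chromosome 16. Chromosome 21 had the lowest share in 5 of them, and chromosome 20 with a limit of 0.5. Under all 6 the share was higher within 5 Mb of an end than farther away. No paired analysis was possible because there is a single library of each kind per line. Other settings for GC content and gene density were not run. Depth is unknown, so what it limits cannot be stated.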

Other observations

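The sex chromosomes lie outside the rule. On chromosome X, 660 of 3722 bins of 40 kb (17.7%) were at or over both limits, with 36.9% over the limit in LNCaP and 33.4% in VCaP. Only chromosomes 16, 19 and 10 among the autosomes had a higher share. On chromosome Y it was 70 of 544 bins (12.9%), with 15.8% in LNCaP and 37.5% in VCaP. Of 118 autosomal entries that are not 40 kb wide and have the same limits in both lines, 11 were over both limits.

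With the running mean undone, the selected bins had a median of 0.52 in LNCaP and 0.68 in VCaP. Of the 7343 bins, 5293 (72.1%) were over both limits by their own undone value, and 7245 (98.7%) were above 0 in both lines. For 20 of them, an entry averaged with their own was not 40 kb wide.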
